A study of Mus musculus with 249 samples.

Results

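The genes Csmd1, Lrp1b, Ptprd and Macrod2 are among the longest in the mouse genome, and their chromatin was followed here in 46C-ES cells, a mouse embryonic stem cell line. The members were the 40 kb windows of a genome-wide detection table (assembly mm9) whose midpoints lie in the given ranges, namely 15.9 to 17.5 Mb of chromosome 8 for Csmd1, 40.45 to 42.5 Mb of chromosome 2 for Lrp1b, 75.6 to 77.9 Mb of chromosome 4 for Ptprd and 140.2 to 142.2 Mb of chromosome 2 for Macrod2. This gave 41, 52, 58 and 50 windows in that order, or 201 of the 68162 windows listed. The genes were put forward as neuronal genes that stem cells keep silent. The table holds DNA detection only, so transcription was not measured and their silence was not checked here.

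Genome architecture mapping (GAM) cuts frozen cells into thin sections, collects slices of single nuclei (nuclear profiles) by laser microdissection and sequences their DNA, so that loci close to each other in the nucleus fall into the same slice more often. All 249 libraries came from 46C-ES cells, a Sox1-GFP knock-in line of strain 129/Ola derived from E14tg2a, grown in serum and LIF and moved to serum-free ESGRO medium for the last day before harvest. By the labels 4 profiles were cut into each tube from sections of 220 nm. By the study's methods not every cut profile passes through the nucleus, so the mean number of nuclear profiles in a library is lower. The libraries came from 11 experiments that tested stains (cresyl violet, eosin, propidium iodide, SYBR Gold), freezing, kit sizes, amplification reagent volumes, PCR cycles and a digestion volume, or made up the full collection, with 54, 31, 26, 23, 23, 21, 20, 18, 12, 11 and 10 libraries. Of the stain tests, only that of cresyl violet has an arm labelled as stained here (16 libraries), and the libraries of the eosin, propidium iodide and SYBR Gold tests are all labelled unstained. All of these share 1 cell line, 1 culture condition and no genetic or drug treatment that separates them, and the labels do not say which libraries came from separate cultures, so p-values measure the spread between libraries. A library was positive in 18.2% ± 7.69 (SD, n = 249) of the listed windows, from 3.40% to 45.2%, and the number of reads behind a call is unknown.

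Csmd1 is a large membrane protein with CUB and sushi domains that restrains complement in brain. Lrp1b is an endocytic receptor of the LDL receptor family, and Ptprd is a receptor tyrosine phosphatase of the LAR type that organises synapses. Macrod2 removes mono-ADP-ribose from proteins. In cells that do not transcribe them, long genes of this kind usually lie in AT-rich, late replicating chromatin near the nuclear lamina.

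By the GENCODE annotation of mm9, Ptprd spans chr4:75587142-77857865 and is the longest of the 186 autosomal protein-coding genes of at least 500 kb that served as the background. Lrp1b (chr2:40450768-42509118) had rank 3, Macrod2 (chr2:140221045-142218702) rank 4 and Csmd1 (chr8:15892537-17535586) rank 6. Macrod2 is on the plus strand and the others are on the minus strand. The surroundings differ in gene content. The 2 Mb flanks of Csmd1 hold 14 protein-coding genes on its 3′ side and 21 on its 5′ side, with Myom2, which encodes a sarcomere protein, 759 kb from the 3′ end and Mcph1, a microcephaly gene, 1060 kb from the 5′ end. Lrp1b has 11 genes on its 3′ side and 3 on its 5′ side, and its nearest neighbours are Ppp6c, a phosphatase subunit, at 1369 kb and Kynu, which encodes kynureninase, at 902 kb. Ptprd stands in a gene desert with 3 genes in its 3′ flank, of which 3110001D03Rik is nearest at 663 kb, and 0 in its 5′ flank, where the pigment gene Tyrp1 comes first at 2622 kb. Macrod2 has 8 genes in its 5′ flank, starting with Sel1l2 at 5.60 kb, whose end shares the first Macrod2 window, and 12 in its 3′ flank, starting with Kif16b, which encodes a kinesin, at 225 kb. It is the only one of the 4 with a protein-coding gene nested inside, Flrt3, a cell adhesion gene that binds latrophilins. The mean GC content was 40.2% in Csmd1, 36.4% in Lrp1b, 37.0% in Ptprd and 38.6% in Macrod2, against 43.1%, 38.9%, 37.6% and 41.03% in the flanks.

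The promoters of Csmd1, Lrp1b and Macrod2 are shown because domain borders were found at or near some of the 5′ ends, and because these promoters differ in CpG content. Each sequence is the 300 bases before the annotated start in mm9, on the strand of the gene, with every CpG in capitals. Csmd1 is at chr8:17535587-17535886, Lrp1b at chr2:42509119-42509418 and Macrod2 at chr2:140220745-140221044.
Csmd1 promoter: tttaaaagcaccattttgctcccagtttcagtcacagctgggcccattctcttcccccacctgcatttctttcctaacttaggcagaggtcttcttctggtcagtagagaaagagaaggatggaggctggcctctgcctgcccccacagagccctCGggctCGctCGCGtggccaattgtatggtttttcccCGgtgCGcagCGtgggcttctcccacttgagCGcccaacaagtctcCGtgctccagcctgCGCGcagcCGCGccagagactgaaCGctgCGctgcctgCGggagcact
Lrp1b promoter: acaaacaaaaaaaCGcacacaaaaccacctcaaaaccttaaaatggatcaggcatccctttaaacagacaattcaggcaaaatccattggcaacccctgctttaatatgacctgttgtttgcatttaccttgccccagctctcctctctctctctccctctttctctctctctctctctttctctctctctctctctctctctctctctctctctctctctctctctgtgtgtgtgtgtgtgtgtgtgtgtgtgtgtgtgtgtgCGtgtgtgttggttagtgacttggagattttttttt
Macrod2 promoter: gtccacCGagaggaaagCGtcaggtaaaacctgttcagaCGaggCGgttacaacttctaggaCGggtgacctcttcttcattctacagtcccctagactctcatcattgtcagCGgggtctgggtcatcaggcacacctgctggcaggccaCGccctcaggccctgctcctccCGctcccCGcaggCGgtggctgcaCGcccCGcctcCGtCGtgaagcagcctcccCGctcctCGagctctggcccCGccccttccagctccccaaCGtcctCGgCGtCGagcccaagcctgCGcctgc
Macrod2 has 22 CpGs in this stretch, Csmd1 16 and Lrp1b 2, against a median of 10 over 21412 promoters of the same length. Lrp1b thus has more CpGs than 14.03% of promoters. The Lrp1b stretch holds a long CT and GT repeat.

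A core of the motif of CTCF, a protein that holds many domain borders, was searched as CCANNAGGGGGC on both strands. It was found in 3 of 41 windows of Csmd1, 1 of 52 of Lrp1b, 1 of 58 of Ptprd and 4 of 50 of Macrod2, which is 7.32%, 1.92%, 1.72% and 8.00%, beside 9.90% of autosomal windows. In the flanks the counts were 11, 7, 1 and 7 windows. The matches within 80 kb of a domain border inside a gene or at its 5′ end are shown. Distances are counted from the outer edge of a gene's windows, which is not exactly the annotated end and the 12 matching bases are in capitals.
Csmd1, chr8:17574245-17574276, 54.3 kb outside the 5′ end: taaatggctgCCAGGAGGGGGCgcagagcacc
Lrp1b, chr2:41112759-41112790, 1407 kb inside: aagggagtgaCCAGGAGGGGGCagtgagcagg
Macrod2, chr2:140341908-140341939, 142 kb inside: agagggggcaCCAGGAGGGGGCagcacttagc
The match in Ptprd lies 371 kb inside the gene and 269 kb from the nearest border. The matches inside Csmd1 lie 443, 684 and 753 kb from the nearest border, and the further ones inside Macrod2 152, 320 and 334 kb. Of all autosomal positions, 21.2% lie within 80 kb of a border. Whether matches lie nearer to borders than other positions was not tested. A match is only a description of the letters, since CTCF binding was not measured.

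Csmd1 and Ptprd were detected less often than the 2 Mb on either side of them, and Lrp1b and Macrod2 were not called different from theirs. Detection was measured in each library as the percent of a region's windows that were positive, using windows positive in at least 25 libraries, which all 201 gene windows were. Csmd1 windows were positive in 15.3% ± 23.0 (SD, n = 249) and its flanks in 20.0% ± 21.999, a difference of -4.67 percentage points with a standard error of 1.07 (sign-flip permutation test over libraries, adjusted p = 0.00124). The gene was below its flanks in 130 libraries, above them in 56 and equal in 63. Ptprd windows were positive in 15.0% ± 17.95 and its flanks in 18.1% ± 18.7, a difference of -3.14 points with a standard error of 0.839 (permutation test, adjusted p = 0.00599), with 138 libraries below and 75 above.

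In Lrp1b 17.7% ± 23.2 of windows were positive against 19.3% ± 20.0 in its flanks. The difference of -1.62 points with a standard error of 0.943 did not pass (permutation test, adjusted p = 0.260), although 133 libraries were below and 68 above. Macrod2 gave 18.1% ± 22.5 against 19.2% ± 20.3, a difference of -1.16 with a standard error of 1.13 (permutation test, adjusted p = 0.490), with 112 libraries below and 80 above. Of the 186 long genes tested in the same way, 10.2% were called lower than their flanks and 0.538% higher, so 2 of the 4 were called where 19 of 186 were. The median difference over all 186 was -1.29 points, and 143 were below 0. Counted from the lowest difference, Csmd1 had rank 2 of the 186, Ptprd rank 19, Lrp1b rank 70 and Macrod2 rank 96. When each window was taken relative to autosomal windows of the same GC content, the differences were -3.44 in Csmd1 (adjusted p = 0.0422) and -2.83 in Ptprd (adjusted p = 0.0320), both by permutation test and past the threshold. The difference of Macrod2 turned to just above 0 under that adjustment. With the median over libraries in place of the mean Lrp1b passed as well, but 101 of the 186 long genes were then called lower. The call in Ptprd was lost with flanks of 1 Mb (-1.70, adjusted p = 0.180 by permutation) and against the flank at higher coordinates alone (-3.04, adjusted p = 0.0647 by permutation). With windows positive in at least 40 libraries neither gene passed, at -3.10 in Csmd1 (adjusted p = 0.132) and -2.26 in Ptprd (adjusted p = 0.146), both by permutation test.

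**Figure D1:**
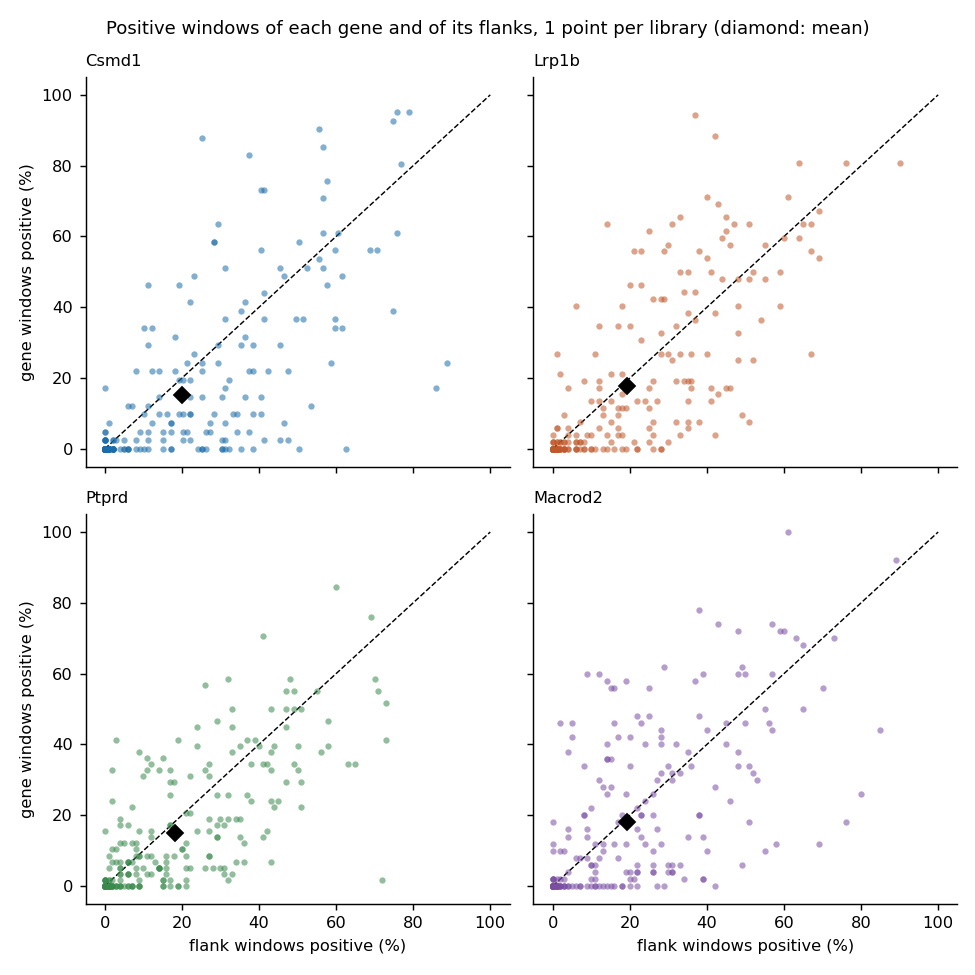
Percent of gene windows positive (vertical axis) against percent of flank windows positive (horizontal axis), 1 point for each of 249 libraries, with the mean as a black diamond and equality as a dashed line. The diamonds of Csmd1 (15.3 against 20.0) and Ptprd (15.0 against 18.1) lie furthest below the line.

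The low detection ran along the whole of Csmd1 and Ptprd. The median usable window of the autosomes was positive in 50 libraries, and 40 of 41 windows in Csmd1 and 58 of 58 in Ptprd were below that, beside 39 of 52 in Lrp1b and 39 of 50 in Macrod2. The flanks of Ptprd were also low, with 33 of 50 windows below that level on the 5′ side and 37 of 50 on the 3′ side. In Csmd1 the flanks had 18 of 50 and 22 of 49, in Lrp1b 32 and 25 of 50 and in Macrod2 30 and 32 of 50. Csmd1 windows were positive in 26 to 51 libraries with a median of 38, and Ptprd windows in 27 to 46 with a median of 37. In Lrp1b the range was 29 to 59 with a median of 45.5, and in Macrod2 it was 35 to 62 with a median of 44.5. The ranges of all 4 genes overlap, and those of Lrp1b and Macrod2 reach well above the autosomal median.

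The least detected window of Csmd1 (chr8:16000001-16040000, 26 libraries) is 1500 kb from its 5′ end and holds 7 annotated exons, and its most detected window (chr8:17080001-17120000, 51 libraries) lies in an intron 420 kb from that end. The least detected window of Ptprd (chr4:75600001-75640000, 27 libraries) is at the far 3′ end and holds 13 exons. Its most detected window is chr4:77240001-77280000, with 46 libraries. In Lrp1b the extremes were chr2:41920001-41960000, an intronic window with 29 libraries, and chr2:40600001-40640000, with 1 exon and 59 libraries. In Macrod2 they were chr2:140720001-140760000, intronic with 35 libraries, and chr2:140520001-140560000, with 1 exon and 62 libraries. Exons gave no common pattern. Windows with an exon were positive in 14.6% and those without in 16.0% in Csmd1, a difference of -1.39 with a standard error of 0.878. In Ptprd the difference was -0.528 with a standard error of 0.571, in Lrp1b 1.44 with 0.774 and in Macrod2 1.13 with 0.738.

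Along the direction of transcription, each gene was split into 3 stretches of nearly equal length. In Lrp1b the first 18 windows were positive in 16.2% ± 23.7 (SD over 249 libraries), the next 17 in 17.8% ± 26.3 and the last 17 in 19.2% ± 26.2. In Macrod2 the order was the other way, with 19.4% ± 26.6 in the first 17 windows and 17.3% ± 24.1 in the last 16. Csmd1 went from 16.1% ± 26.1 to 14.4% ± 24.6 and Ptprd from 15.3% ± 21.5 to 14.2% ± 20.9. These differences within genes were not tested.

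**Figure D2:**
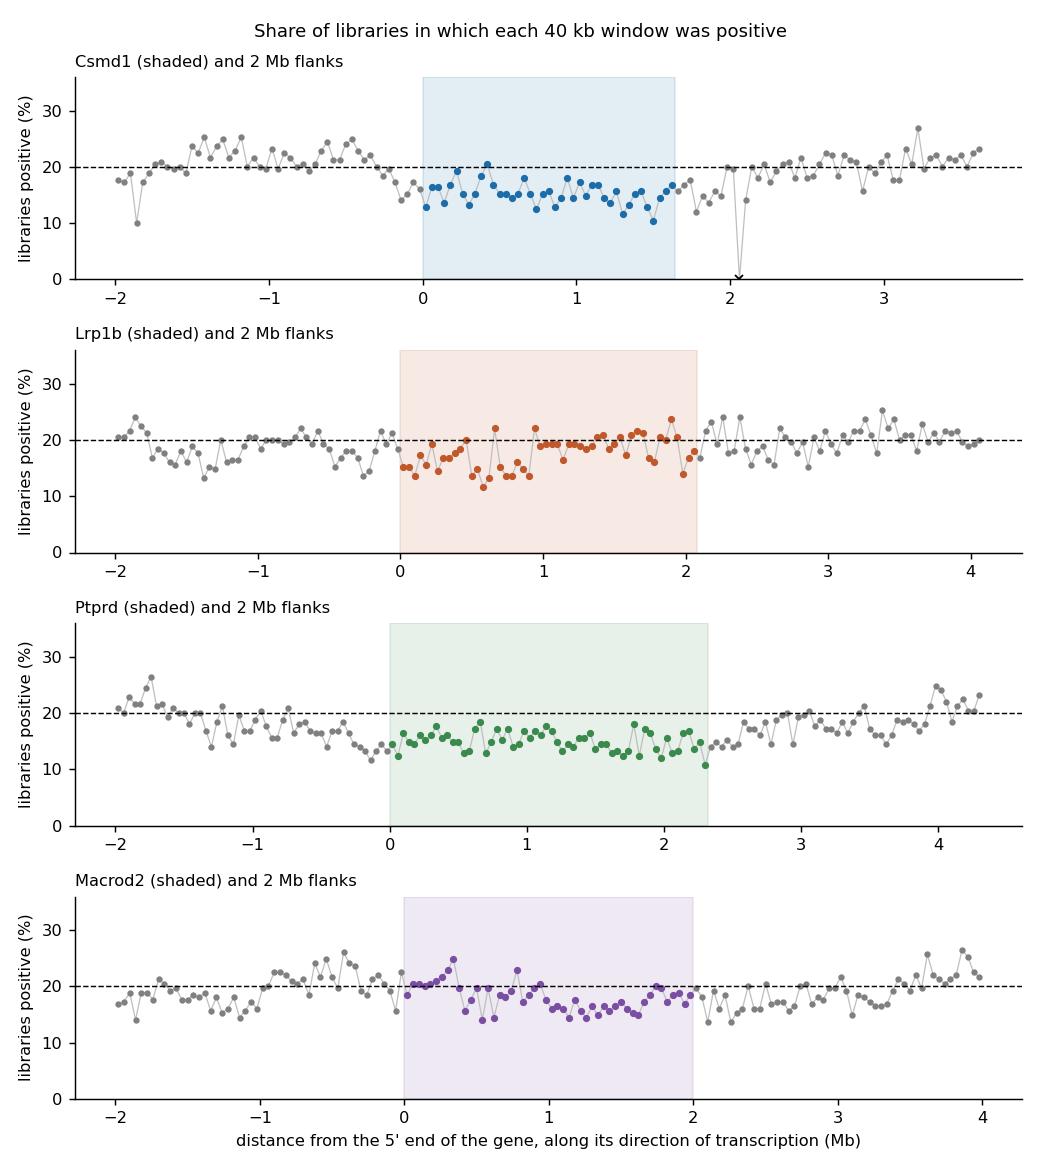
Percent of 249 libraries in which each 40 kb window was positive, by distance from the 5′ end along the direction of transcription, for gene windows (coloured, shaded) and the 2 Mb flanks (grey). The dashed line is the autosomal median of 50 libraries, and a cross marks the 1 flank window of Csmd1 below 25 libraries. All 58 Ptprd windows and 40 of 41 Csmd1 windows lie under the line.

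A library often held no piece of a gene at all. No window of Csmd1 was positive in 112 of 249 libraries (44.98%), none of Lrp1b in 94, none of Macrod2 in 91 and none of Ptprd in 75 (30.1%). At least 50% of the windows were positive in 28 libraries for Csmd1, 37 for Lrp1b, 17 for Ptprd and 28 for Macrod2. All windows of a gene were positive in 1 library, for Macrod2, and in 0 libraries for the other genes. The genes differ in length, from 41 windows in Csmd1 to 58 in Ptprd, and a longer gene has more windows that can be positive, so these counts do not compare the genes at equal length. Where a gene had a positive window, a median of 21.95% of the windows of Csmd1 and 15.5% of those of Ptprd were positive. In such libraries the positive windows of Csmd1 formed a median of 4 separate runs, those of Ptprd 5 and those of Lrp1b and Macrod2 6.

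At least 50% of a gene was positive for 0 of the 4 genes in 162 libraries, for 1 in 66, for 2 in 19, for 3 in 2 and for 4 in 0. Mean coverage of these libraries was 15.9% with 0 genes, 22.2% with 1 and 23.4% with 2. Csmd1 and Ptprd, on different chromosomes, were both at 50% or more in 6 libraries, where their separate counts give 1.91. Lrp1b and Macrod2, on the same chromosome, shared 8 where 4.16 would be given. The other 4 pairs lay near their given values. Csmd1 shared 4 against 4.16 with Lrp1b and 3 against 3.15 with Macrod2. Ptprd shared 3 against 2.53 with Lrp1b and 1 against 1.91 with Macrod2. The given values take no account of coverage, which differs between libraries. These counts are small and were not tested.

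The lower detection of Csmd1 and Ptprd was spread over the experiments. Csmd1 was below its flanks in 9 of 11 experiments, from -13.5 points in the PCR cycle test (12 libraries) to 1.05 in the kit size test (23 libraries). Ptprd was below in 10 of 11, from -7.02 in the propidium iodide test (20 libraries) to 2.52 in the kit size test. Lrp1b was below in 8, from -8.29 to 4.65, and Macrod2 in 9, from -7.64 to 2.81. Several of these limits rest on 1 library, as a check chosen after seeing the data showed. The PCR cycle test stood at -8.88 in Csmd1 without its library at -64.5, so that the cresyl violet test was then lowest (-9.55, 26 libraries), and the kit size test stood at -0.969 without its library at 45.6, so that the early freezing test was then highest (0.395, 23 libraries). In Ptprd the propidium iodide test stood at -3.69 without its library at -70.3, which had 1.72% of the gene and 72% of its flanks positive, and the digestion volume test was then lowest (-5.76, 11 libraries). The highest limit of Ptprd became 1.23 without a library at 30.8. In Lrp1b the PCR cycle test stood at 1.75 without a library at 36.5, but the highest limit was then 4.52, in the digestion volume test (11 libraries). Whichever library was left out, 8 to 10 experiments were below 0 in Csmd1 and 9 or 10 in Ptprd. The difference did not pass a test across the 11 experiments for any of the genes (permutation of the F statistic, p = 0.201 for Csmd1, 0.271 for Lrp1b, 0.664 for Ptprd and 0.697 for Macrod2). Between protocol arms within the 7 experiments that had more than 1 arm (147 libraries), p was 0.982, 0.481, 0.707 and 0.339 in the same order. Across experiments, the protocol and anything else that differed between them cannot be told apart.

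Ptprd had the weakest linkage between its own windows of the 186 long genes. Linkage was measured as D′, the excess of the frequency at which both windows of a pair are positive over the product of their separate frequencies, divided by the largest excess possible, so that 0 is no excess and 1 the highest. Averaged over distances of 80 kb to 1.2 Mb, D′ inside Ptprd was 0.268 with a standard error of 0.0246 (over libraries drawn again with replacement), against 0.346 with 0.0204 in its flanks. The difference of -0.0784 had a 95% interval of -0.134 to -0.0233, and the permutation test gave p = 0.0145 before and 0.901 after adjustment over the 186 genes. No gene of the 186 passed that adjustment (0.00%), and 3.23% had an unadjusted p under 0.05, 1.61% in the lower direction.

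The other genes lay close to their flanks. Linkage was 0.411 with a standard error of 0.0361 inside Csmd1 and 0.411 with 0.0221 in its flanks, with an interval of the difference of -0.0719 to 0.0721 (permutation test, p = 0.999). Lrp1b gave 0.394 with 0.0256 and 0.376 with 0.0191, with an interval of -0.0312 to 0.0681. Macrod2 gave 0.351 with 0.0282 and 0.382 with 0.0209, with an interval of -0.0856 to 0.0243. Csmd1 and Ptprd, which were detected at nearly the same level, thus had linkage of 0.411 and 0.268. These differences between genes of different chromosomes were not tested.

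Genes of different length hold different distances, so levels between genes were set side by side as z-scores, where each pair is measured against all pairs of the same distance on its chromosome. The mean z inside was -1.30 in Ptprd, the lowest of the 186, and the next lowest was -0.974 in the synaptic adhesion gene Cadm2. Its flanks were also low, at -0.471. Macrod2 had -0.393 (rank 34 from the lowest), Lrp1b 0.0824 and Csmd1 0.221. Over 80 to 400 kb only, D′ in Ptprd was 0.359, again the lowest, beside 0.367 in Cadm2, 0.415 in Macrod2, 0.436 in Lrp1b and 0.477 in Csmd1. These ranks are a description with no test, and the gap between Ptprd and Cadm2 over 80 to 400 kb is smaller than the standard errors above.

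The fall of D′ with distance differed between the genes. In Ptprd it went from 0.449 with a standard error of 0.0378 at 80 kb to 0.308 with 0.0337 at 400 kb and 0.162 with 0.0300 at 1200 kb, where chromosome 4 as a whole had 0.555, 0.423 and 0.305. The gene was thus below its chromosome at each of these distances. Lrp1b fell less, from 0.515 with 0.0436 to 0.404 with 0.0422 and 0.349 with 0.0436, against 0.558, 0.419 and 0.298 on chromosome 2, so that it was below its chromosome at 80 kb and above it at 1200 kb, in both cases by less than 2 standard errors. Csmd1 (0.545, 0.447 and 0.338) and Macrod2 (0.494, 0.375 and 0.310) stayed within 2 standard errors of their chromosomes at all 3 distances.

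**Figure D3:**
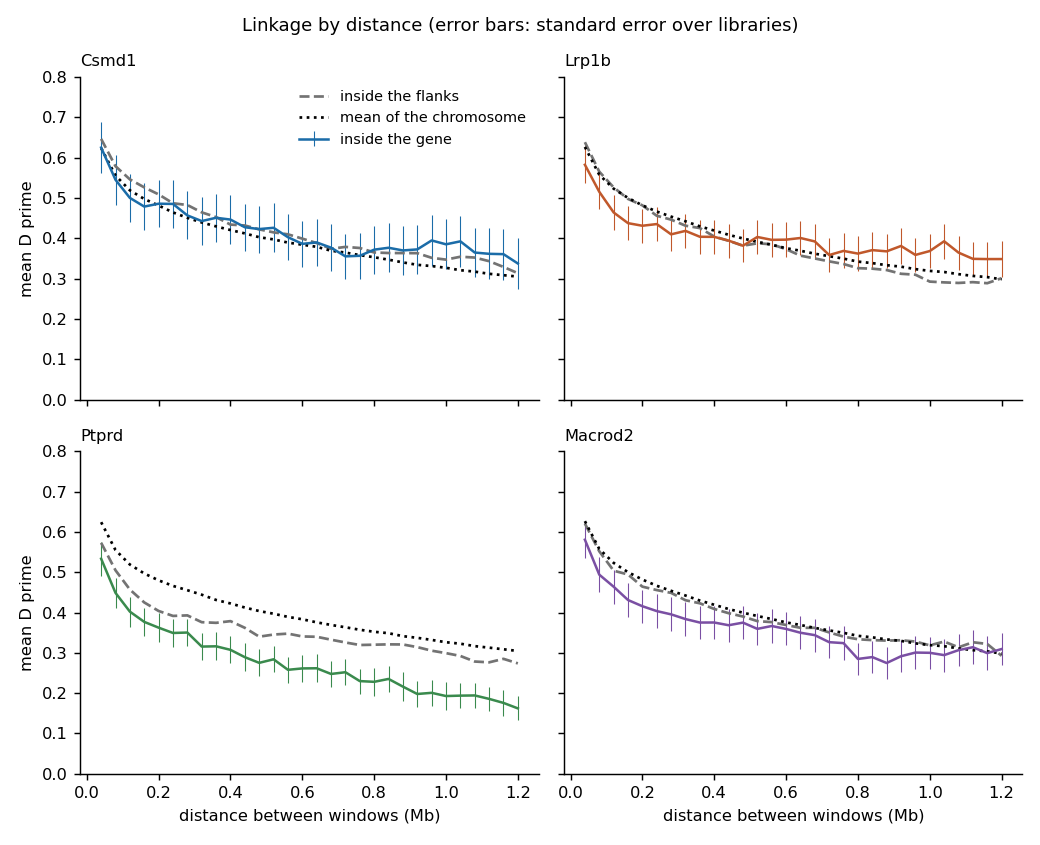
Mean D′ between windows (vertical axis) by their distance in Mb (horizontal axis), inside each gene (coloured line, bars of 1 standard error over 249 libraries), inside its flanks (dashed) and on its chromosome (dotted). Ptprd runs below both other lines and reaches 0.162 at 1.2 Mb, where the chromosome has 0.305.

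The ends of Ptprd were less linked than other loci at their distance, but found together more often than their separate counts give. Between the 5 windows at either end (200 kb each), mean D′ was 0.0956 in Ptprd, against 0.243 for pairs at the same distances on chromosome 4 (z = -1.61). Both ends were positive at 50% or more in 7 libraries, of 28 and 33 with the one or the other, where these counts give 3.71. In Lrp1b the value was 0.357 against 0.247 (z = 1.25), in Csmd1 0.367 against 0.284 (z = 0.878) and in Macrod2 0.295 against 0.253 (z = 0.478). Both ends were found together in 15 libraries for Lrp1b, 16 for Csmd1 and 20 for Macrod2, where 4.94, 3.86 and 7.71 would be given. These are values with no test.

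The 2 pairs inside each gene with the highest z at 200 kb or more were taken by rule, from the same z values as the means above, and only describe them. In Lrp1b the first joined windows 1900 and 260 kb from the 5′ end (chr2:40600001-40640000 and chr2:42240001-42280000), which were positive together in 26 libraries where 8.53 would be given by their separate frequencies (D′ 0.636, z = 4.15). The other Lrp1b pair shares its first window and reached the window 180 kb from the 5′ end (26 libraries against 9.24, z = 3.45). In Csmd1 the windows 1500 and 180 kb from the 5′ end were positive together in 17 libraries against 4.39 (D′ 0.584, z = 3.02), and those at 900 and 420 kb in 27 against 7.37 (z = 2.88). In Macrod2 both pairs met at 1580 kb, from 100 kb (23 libraries against 7.78, z = 2.60) and from 940 kb (26 against 7.78, z = 2.57). The highest pairs in Ptprd were lower and shorter, at 1180 and 740 kb (24 against 6.24, D′ 0.577, z = 1.76) and at 1300 and 980 kb (z = 1.66).

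In Ptprd, Csmd1 and Macrod2 the highest pairs into the flanks had higher z than any inside pair at 200 kb or more. In Lrp1b the highest inside pair (z = 4.15) was above its pairs into the flanks. Pairs into the flanks were drawn from more candidates than inside pairs, so these maxima cannot be compared directly. The Ptprd window 2100 kb from the 5′ end was linked with one 1900 kb before the gene (22 libraries against 7.55, D′ 0.568, z = 4.26). The Ptprd window at 300 kb was linked with one 1580 kb before the gene (27 against 8.35, z = 3.69). Csmd1 had the highest such pair, between its window at 1500 kb and one in the 3′ flank 720 kb further (22 libraries against 5.33, D′ 0.807, z = 4.55), and a pair across its 5′ end with z = 3.28. In Lrp1b both pairs crossed the 3′ end (z = 3.71 and 3.60), and in Macrod2 there was 1 across each end (z = 3.11 and 2.89). These pairs are the highest of many and carry no test.

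**Figure D4:**
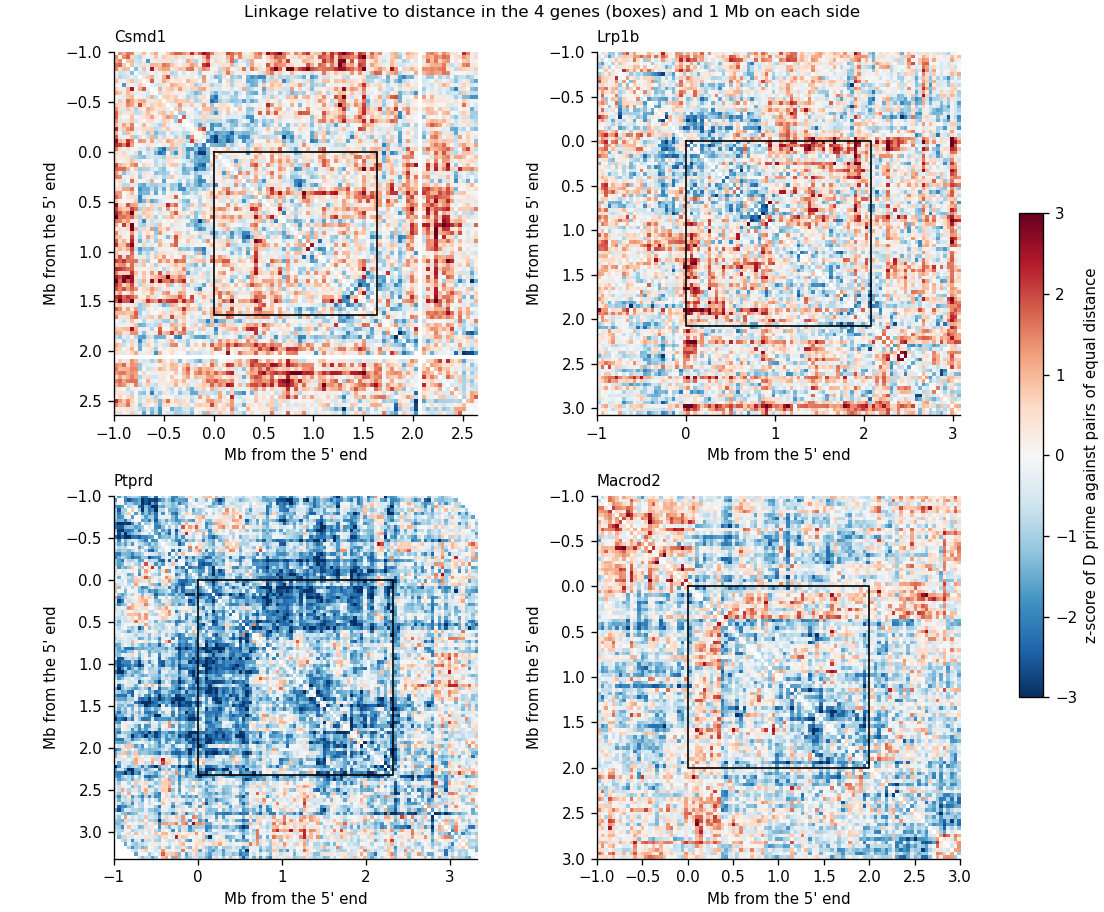
Maps of z-scores of D′ for all window pairs in each gene (black box) and 1 Mb on each side, with both axes in Mb from the 5′ end. Red pairs were linked more, and blue pairs less, than pairs of the same distance on the chromosome, and pairs beyond 4 Mb or with a window below 25 libraries are blank. In Ptprd the first 0.64 Mb are blue against the rest of the gene, and in Lrp1b the 2 ends are red against each other.

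None of the 8 gene ends was called an insulating border. Insulation was measured as the mean D′ between the 400 kb inside and the 400 kb outside an end, minus the same measure 400 kb to either side, so a negative value means weaker linkage across the end. At the 5′ end of Csmd1 it was 0.344 against 0.446, a difference of -0.102 with a standard error of 0.0397 (permutation test, p = 0.00929, adjusted p = 0.160). At the 5′ end of Macrod2 it was 0.387 against 0.466, a difference of -0.0791 with 0.0328 (p = 0.0154, adjusted p = 0.180 by permutation). The 3′ end of Macrod2 went the other way, 0.412 against 0.347, a difference of 0.0652 with 0.0266 (p = 0.0122, adjusted p = 0.160 by permutation). Over 361 ends of long genes, 0.831% were called (0.554% as lower) and 15.8% had an unadjusted p under 0.05, which 3 of these 8 ends had.

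The 5′ end of Lrp1b gave -0.0537 with a standard error of 0.0368 and its 3′ end -0.0371 with 0.0298. The 3′ end of Csmd1 gave -0.0429 with 0.0287. At Ptprd the values were -0.00882 with 0.0285 at the 5′ end and 0.0168 with 0.0234 at the 3′ end. The linkage across the 5′ end of Ptprd was low in itself, at 0.328, within the lowest 2.15% of positions on chromosome 4, and so was that of Lrp1b, at 0.341 and 1.78% of chromosome 2, and of Csmd1, at 4.33% of chromosome 8. In Ptprd the position 400 kb inside had 0.301 and the one 400 kb outside 0.372.

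Domain borders, taken as local minima of this score along the chromosome (prominence of at least 0.5 SD), fell exactly on the 5′ edge of the windows of Csmd1 and of Lrp1b, and 80 kb inside the 5′ end of Macrod2. So 3 of 4 5′ ends lay within 80 kb of one, beside 24.9% of the 5′ ends of long genes and 21.2% of all autosomal positions. At 3′ ends the nearest were 80 kb away in Ptprd, 120 kb in Csmd1, 160 kb in Lrp1b and 440 kb in Macrod2, so 1 of 4 was within 80 kb, beside 25.6%. That count was 0 of 4 with a prominence of 1 SD, where the nearest border to the 3′ end of Ptprd was 520 kb away, with a square of 200 kb (120 kb) and with one of 600 kb (520 kb). The 5′ end of Ptprd was 640 kb from a border with the 400 kb square. With a square of 200 kb a border fell on the 5′ end of Ptprd (0 kb), and those of Csmd1, Lrp1b and Macrod2 were 40, 80 and 80 kb away. With 600 kb they were 80 kb away in Csmd1, 240 in Lrp1b, 640 in Ptprd and 40 in Macrod2. The shares over all ends and positions above hold for the 400 kb square and 0.5 SD only. With 200 kb squares borders were also more frequent inside the 4 genes, so those distances cannot be read against these shares.

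Inside the genes there was 1 border in Csmd1, at 1520 kb from its 5′ end, 2 in Lrp1b (1400 and 1920 kb), 2 in Ptprd (640 and 1800 kb) and 3 in Macrod2 (80, 760 and 1560 kb). The border of Ptprd at 640 kb (chromosome 4, position 77280001) was the sharpest, with a score of 0.252 and a prominence of 5.98 SD, and the other inner borders had 0.594 to 2.44 SD. The 5′ borders of Csmd1 and Lrp1b had 3.96 and 2.42 SD. Outside the genes the deepest was 1000 kb before the 5′ end of Lrp1b, with a score of 0.268 and 6.32 SD. Per Mb this is 0.610 borders in Csmd1, 0.962 in Lrp1b, 0.862 in Ptprd and 1.5 in Macrod2, beside 1.06 over the autosomes.

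The borders divide Ptprd into 3 blocks, and linkage was low within as well as between them. The mean z was -0.948 over 549 pairs within blocks and -1.58 over 669 pairs between blocks, and the lowest and highest of the 3 blocks had -1.36 and -0.767. In Csmd1 the means were 0.187 within and -0.0659 between 2 blocks. In Macrod2 they were equal, at -0.444 and -0.443, and in Lrp1b pairs between blocks were higher (0.115) than pairs within (-0.0969). Blocks come from the same linkage values, so this describes them and tests nothing.

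**Figure D5:**
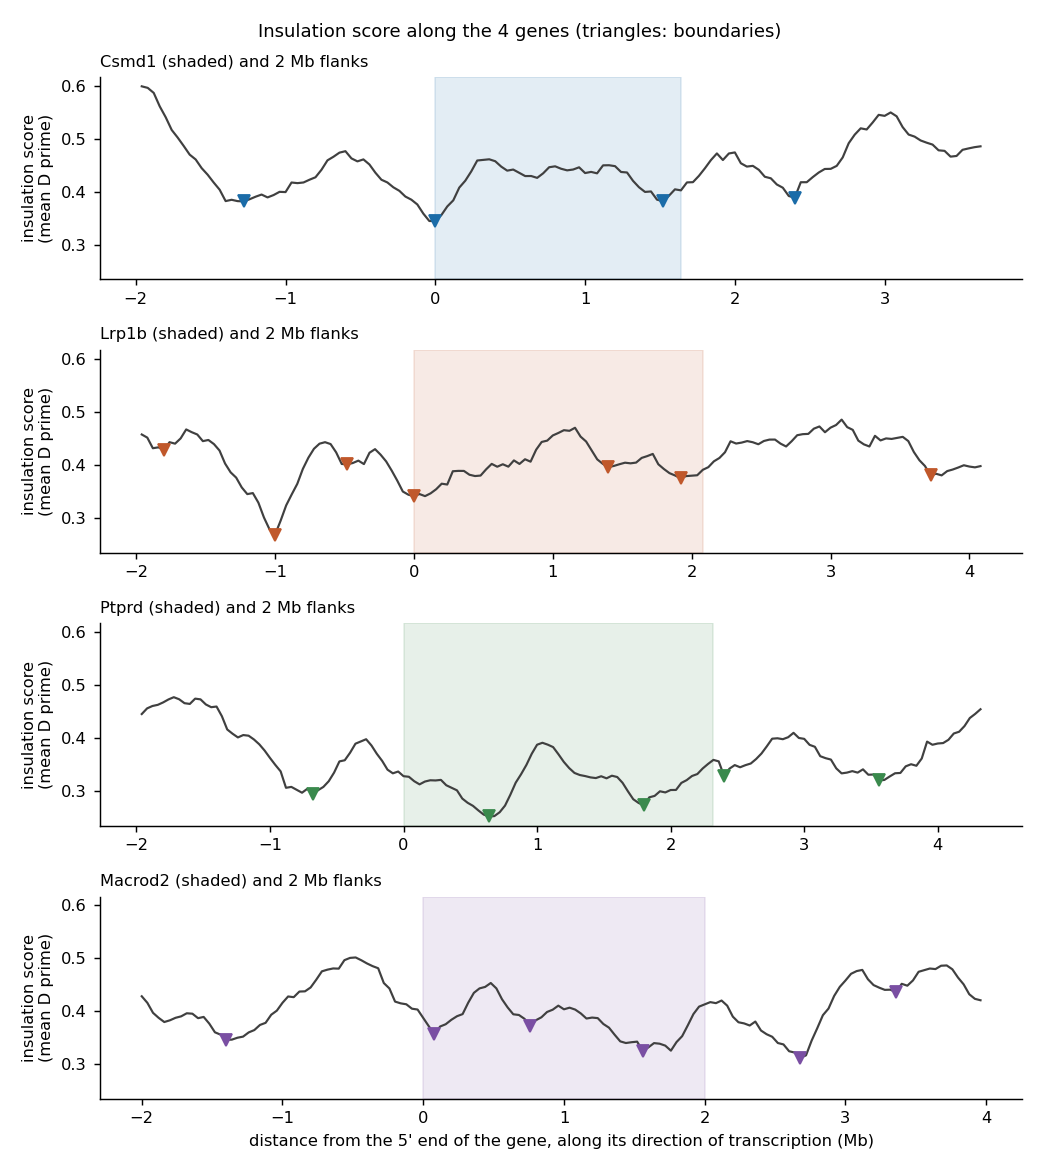
Insulation score (mean D′ across each position in a 400 kb square, vertical axis) by distance from the 5′ end in Mb, with the gene shaded and borders as triangles. Borders sit at 0 in Csmd1 and Lrp1b, and the lowest point inside a gene is that of Ptprd at 0.64 Mb, with 0.252.

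Other long genes were read for comparison from lists of related and functionally similar genes. Of 15 relatives of the 4 genes, 6 are long enough to be measured. Ptprt, a receptor phosphatase of another subfamily, was called lower than its flanks, with 16.4% against 20.5% (difference -4.19, adjusted p = 0.00558 by permutation). The closest relatives of Csmd1 were not called, with -3.62 in Csmd2 (adjusted p = 0.0515) and 0.0268 in Csmd3 (adjusted p = 0.981). Of the phosphatases, Ptprg was at 3.10 (adjusted p = 0.0557), Ptprk was at 1.28 and Ptprm at -2.88 (adjusted p = 0.0557), all by permutation and none called.

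Of 45 other long neuronal genes 38 were measured, 35 with a difference below 0 and a median of -1.53. The 6 that passed were all lower, namely Nrxn3 (-4.18), a presynaptic neurexin, Ctnna3 (-3.37), an alpha-catenin, the netrin receptor Dcc (-3.96), Cadm2 (-3.10), the glutamate receptor Grm8 (-4.27) and the splicing regulator Rbfox1 (-3.75). That is 6 of 38 beside the 10.2% of all 186. The lists were chosen with earlier results of these data known, so shares of the lists describe them and test nothing. Of 16 long genes of other or broad function 13 were measured, with a median of -0.571 and 0 called. Among them Fhit was at -1.63 and Wwox at 2.61, and Macrod2 (-1.16) lies between. Csmd1 was exceeded in the whole table only by Clstn2 (-6.28), which encodes a synaptic calsyntenin, and was followed by Thsd7b (-4.49). The highest differences were in Etl4 (5.20, the only gene called higher), Schip1 (3.76) and Ptprg.

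By linkage relative to flanks, Dock1 (-0.0879), Cadm2 (-0.0862) and Lama2 (-0.0805) came before Ptprd (-0.0784), which had rank 4. Macrod2 had rank 28, Csmd1 rank 85 and Lrp1b rank 107. Zmat4 (0.115), Rasgrf2 (0.110) and Sdk1 (0.102) were highest.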

How the data were processed

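Per the study's methods, the authors aligned reads to mm9 with Bowtie2 (version 2.1 in the submitters' processing notes), removed PCR duplicates with Samtools, and had GAMtools mark a 40 kb window as positive from a threshold of 4 reads on. In the deposited table each cell is 1 (positive) or 0 (other call) for a window in a library that passed quality control. It keeps no reads, so depth and its precision are unknown and a 0 can be absence or too few reads. All 249 columns matched a library name in the labels, and 0 were left over.

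Windows positive in at least 25 libraries were used. Regions were the windows with midpoints in the gene ranges, and flanks were 2 Mb on each side. Python 3.11.15 with numpy 2.4.6 and scipy 1.17.1 was used. D′ and all differences were split into the contributions of single libraries and tested by flipping their signs at random (two-sided permutation test, 100000 resamples), with Benjamini-Hochberg adjustment over 186 autosomal protein-coding genes of at least 500 kb (188 before 2 models with more than 5 nested genes were left out) or 361 of their ends, at a threshold of 0.05. Standard errors of D′ averaged over distances and of single pairs came from 1000 redraws of the libraries with replacement. Those at gene ends came from the SD of the contributions of single libraries, divided by the square root of their number. Experiments and, within them, arms (taken from the titles) were compared by permuting the F statistic. The procedures were tested on simulated data. The promoter of 1 of the 4 genes is not reported here.

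Named items were the 4 genes, their nearest and nested genes, the most and least detected window of each, the 2 pairs of highest z inside and across its ends, the 3 highest and lowest long genes by each difference, and the lists of relatives, neuronal and other long genes. The members and lists were chosen with earlier results of these data known. Alternatives were other flanks, filters, squares, statistics, gene limits, a GC adjustment and leaving out libraries or experiments.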

Additional observations from a re-analysis of the deposited data

Results flagged for a closer look

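In each of 36 groups of 4 to 10 libraries (9 protocol arms for each of the 4 genes), the library furthest from the others was checked for a gap that is large against the range of its group. For normally distributed values about 1 in 20 groups is marked in this way by chance alone. Many values here are 0, the rate for such values was not measured, and 9 libraries were marked. Values are gene minus flanks in percentage points.

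For Csmd1, 1 library frozen after incubation stood at 35.2, with 46.3% of the gene and 11.1% of its flanks positive, where the group median was 0. In the unstained arm of the SYBR Gold test 1 library stood at -21.7. In the PCR cycle test, 1 of 4 libraries of the arm with the fewest cycles stood at -22.4 (median -0.431), and 1 of 5 of the arm with the middle number at -64.5, with 24.4% of the gene and 88.9% of its flanks positive.

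For Lrp1b, 1 library of the first reagent volume protocol stood at -27.7. For Ptprd, 1 unstained library of the cresyl violet test stood at 29.7, with 70.7% of the gene positive, and 1 of the SYBR Gold test at -29.6. For Macrod2, 1 library frozen after incubation stood at 44 and 1 of another reagent volume protocol at 23.0. The libraries differ from gene to gene.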

How the results depend on the processing

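No paired analysis was possible because no label ties a library of one group to a library of another. Gene and flanks were compared within each library. The lower detection of Csmd1 and Ptprd kept its direction under the 9 alternatives run and with 1 experiment or 1 library (of the arms of 3 to 5 libraries, here and below) left out (-5.25 to -3.86 and -3.71 to -2.80, adjusted p at most 0.0391 and 0.0223). It no longer passed with windows positive in at least 40 libraries (-3.10 in Csmd1, -2.26 in Ptprd), a filter that keeps 13 of 41 and 20 of 58 gene windows and so leaves out the least detected ones, and, for Ptprd, with flanks of 1 Mb (-1.70) or the flank at higher coordinates only (-3.04). With 1 experiment or 1 library left out, Lrp1b ranged from -2.02 to -0.945 and Macrod2 from -2.27 to -0.805, and neither passed. With the median over libraries Lrp1b passed at -1 and Macrod2 was at 0, and 101 long genes in place of 19 were called lower. Relative to windows of the same GC, 8 were called lower and Macrod2 turned to 0.0623, and with the filter at 40 libraries 5 were.

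No linkage difference passed under any alternative. That of Csmd1, which is near 0, turned negative as a z-score (-0.00196), over 80 to 400 kb (-0.0210), against the flank at lower coordinates (-0.0153) and without libraries of coverage below 5% (-3.85e-05), and ranged from -0.0292 to 0.0412 with a library or experiment left out. That of Lrp1b turned negative over 80 to 400 kb (-0.0350) and against the flank at lower coordinates (-0.0172). That of Ptprd was negative under each of the 9 alternatives and from -0.0976 to -0.0634 with a library or experiment left out. In the same runs that of Lrp1b ranged from 0.00132 to 0.0292 and that of Macrod2 from -0.0677 to -0.00982.

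At the gene ends no alternative gave a call where it could be run. With windows positive in at least 40 libraries only the 3′ end of Lrp1b and the 5′ end of Macrod2 had a value. The sign turned at the 3′ end of Lrp1b with a square of 200 kb (0.0276), at the 3′ end of Csmd1 with 600 kb (0.000987), at the 5′ end of Ptprd with 600 kb (0.0289) and with the inner reference only (0.0267), and at its 3′ end with the outer reference only (-0.0256). The 5′ end of Ptprd ranged from -0.0188 to 0.00397 with a library or experiment left out. No other end turned sign in these runs, but several moved. The 3′ end of Ptprd ranged from 0.00519 to 0.0255, the 5′ end of Lrp1b from -0.0732 to -0.0316 and the 3′ end of Csmd1 from -0.0547 to -0.0267. Of all ends, 8 were called lower with 600 kb in place of 2, and 0 with 200 kb. Borders inside the genes depended on the scale. With 200 kb squares there were 4 in Csmd1 and 5 in each of Lrp1b, Ptprd and Macrod2, and no density over the autosomes was taken for that setting. With a prominence of 0.25 SD there were 3 in Csmd1. With 1 SD there was 1 in Lrp1b, and Macrod2 lost its border at 760 kb (0.923 SD). Causes of these changes were not tested. The unknown depth of each call and the number of libraries limit these values.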
